A study of Homo sapiens with 2 samples.

Results

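The unfolded protein and amino acid stress response is represented here by a list of 42 genes, which hold endoplasmic reticulum (ER) chaperones and folding enzymes, the sensors of ER stress, the transcription factors of the integrated stress response, and the amino acid enzymes and transporters that these factors induce. Genes were taken from the list by the name printed beside each probe on the array. Of the 42 genes, 41 were named on the array and 40 were measured well above background in both cell populations, out of 30484 gene names and 19467 genes measured in the same way. MANF was not listed under that name. VLDLR, a lipoprotein receptor, was not well above background on either array, with signals of 7.47 and 6.24, and no gene of the list passed this filter in only 1 of the cell populations.

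SAS cells are an established line from a human squamous carcinoma of the tongue, and eSAS cells are the population left after 5 rounds in which large spheroids of SAS cells were collected on a removable mesh and dissociated. Both were grown in DMEM with fetal bovine serum, penicillin and streptomycin, and total RNA was taken during log growth. Each population was measured on 1 Agilent 1-colour array, both arrays on 1 slide, so the comparison asks how the selected population differed from the parental line in 1 RNA sample of each. There was no replicate, hence no test and no p-value, and precision is limited by having 2 arrays in all. The methods also describe how a line is grown from a single cell, without saying whether the eSAS RNA came from such a line. A difference between eSAS and SAS cells cannot be told apart from a difference between 2 cultures.

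When unfolded proteins build up in the ER lumen, the sensors IRE1 (encoded by ERN1), ATF6 and PERK (encoded by EIF2AK3) set off the unfolded protein response. Spliced XBP1 and cleaved ATF6 induce chaperones, oxidoreductases and degradation factors, whereas PERK phosphorylates the initiation factor eIF2, which slows translation in general and favours translation of ATF4. ATF4 is also reached through a kinase that senses uncharged tRNA, so ER stress and amino acid shortage share a set of target genes, called the integrated stress response. Much of this control acts on splicing, cleavage, phosphorylation or translation, which a microarray of mRNA does not measure.

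Promoter sequences near the gene start show which member genes carry exact letters of the DNA elements of each branch. XBP1 and ATF6 act through the ER stress response element (ERSE, written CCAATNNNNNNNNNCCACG) and its shorter form ERSE-II (ATTGGNCCACG), and ATF4 with C/EBP partners acts through the C/EBP-ATF response element (CARE, written TGATGNAAN), where N is any base. These letters were searched on both strands in the 250 bases before each gene start. RefSeq promoters of GRCh38.p14 were matched for 39 of the 42 genes, while PSPH, PDIA3 and SHMT2 had no entry. An ERSE was found in 7 of the 39, against 25 of all 27305 genes with a promoter (0.074% of all 35116 promoters). An ERSE-II was found in 3 of the 39, against 18 of the 27305 genes (0.0513% of all promoters). A CARE was found in 5, against 1057 genes (3.13% of all promoters). Whether the list was richer in these elements was not tested. ERSE and ERSE-II are made of the same 5-base blocks at different spacing, and no match of 1 element overlapped a match of another in these genes. A match describes letters only. The windows below run 5′ to 3′ on the strand of the gene, with the matched element in capitals. They were chosen to show the elements of the chaperones and of the amino acid response genes whose values follow.
HSPA5 (ERSE, chr9:125241379-125241421, minus strand): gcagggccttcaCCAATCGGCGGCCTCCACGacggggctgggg
HSP90B1 (2 ERSE, chr12:103930204-103930351, plus strand): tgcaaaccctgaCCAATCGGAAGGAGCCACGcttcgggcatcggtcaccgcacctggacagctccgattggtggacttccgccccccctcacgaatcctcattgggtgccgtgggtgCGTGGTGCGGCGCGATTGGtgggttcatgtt
CALR (ERSE, chr19:12938372-12938414, plus strand): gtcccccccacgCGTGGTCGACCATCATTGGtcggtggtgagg
PDIA6 (ERSE, chr2:10812841-10812883, minus strand): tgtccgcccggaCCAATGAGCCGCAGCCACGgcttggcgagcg
CRELD2 (ERSE, chr22:49918542-49918584, plus strand): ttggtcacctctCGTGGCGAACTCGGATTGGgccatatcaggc
XBP1 (ERSE, chr22:28800591-28800633, minus strand): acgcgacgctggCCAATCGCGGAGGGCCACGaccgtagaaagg
HERPUD1 (ERSE-II, chr16:56932013-56932047, plus strand): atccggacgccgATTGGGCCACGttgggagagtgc
SDF2L1 (ERSE-II, chr22:21642102-21642136, plus strand): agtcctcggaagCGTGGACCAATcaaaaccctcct
ASNS (CARE, chr7:97872456-97872488, minus strand): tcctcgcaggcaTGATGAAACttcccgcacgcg
CHAC1 (CARE, chr15:40953249-40953281, plus strand): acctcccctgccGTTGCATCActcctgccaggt
HERPUD1 (CARE, chr16:56931953-56931985, plus strand): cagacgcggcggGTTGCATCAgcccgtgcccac
SLC1A5 (CARE, chr19:46784891-46784923, minus strand): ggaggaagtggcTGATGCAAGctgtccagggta
The ERSE of HSPA5 ended 47 bases before the gene start and that of XBP1 33 bases before it. HSP90B1 held an ERSE in each orientation, with the nearer one ending 70 bases before the start. HYOU1 held 2 ERSE-II, CANX an ERSE and ATF3 a CARE as well. Within these 250 bases and by these exact letters, HERPUD1 was the 1 gene of the 39 with an element of each branch. Elements further away or with other letters were not searched.

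Values are processed signals, the scanner software's background-subtracted brightness in linear units, and log2 ratios of eSAS over SAS after each array was divided by its 75th percentile, 1242 for SAS and 1196 for eSAS. An equal signal on both arrays therefore gives a log2 ratio slightly above 0. A gene with several probes has the mean of their log2 ratios. The yardsticks of error within these arrays leave out the variation between cultures. Spots of the same probe had an SD of 0.07 about their mean, pooled over 208 probes. The 2 probes of a gene had an SD of 0.22 about their mean, pooled over 3975 genes. The software's own error of a log2 ratio was 0.20 to 0.37 for the 59 probes used. Bulk RNA cannot tell fewer cells that express a gene from less RNA per cell. Of 9 squamous keratin, adhesion and lineage markers, 9 were well above background on both arrays, with log2 ratios from -3.90 (KRT14) to -0.29 (DSP) and summed signals of 80974 in SAS and 49107 in eSAS cells. The KRT14 value is the mean of 2 probes that disagreed, with -6.58 and -1.23. The next lowest marker was PKP1 at -0.83. Fibroblast markers were well above background for 1 of 6 on each array, COL1A1 in SAS and LUM in eSAS, with summed signals of 63.6 and 69.5. Leukocyte markers passed for 2 of 6 on each array, CD68 and CD14, and not for the defining PTPRC, with summed signals of 959 and 1022. Endothelial markers passed for 2 and 1 of 5, with summed signals of 124 and 112. The part of the squamous marker difference in the values below was not tested.

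The stress response genes stood at nearly the same level in SAS and eSAS cells. None of the 40 measured genes was 1.5-fold higher in eSAS cells, where 3.19% of all genes were, and none was 1.5-fold lower, where 4.99% were. At 1.2-fold, 4 genes were higher (10%, against 12.4% of all genes) and 4 were lower (10%, against 14.9%). The remaining 32 genes lay within 1.2-fold. Log2 ratios ran from -0.58 to 0.39, with 20 genes above 0 and 20 below it. Their median was 0.00, as was that of all genes, and their SD was 0.21 against 0.37 over all genes. Many of these genes are strongly expressed. Among the 8273 genes at or above the lower quartile of the list's level, the SD was 0.25 and 16.6% were at least 1.2-fold apart. For the list the share was 20%, over all 40 measured genes, including those below that quartile. Beyond 2 times the software's error lay 4 of the 59 probes, against 12.6% of all probes, namely the probe of DNAJC3, both of SLC7A5 and 1 of TRIB3.

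**Figure D1:**
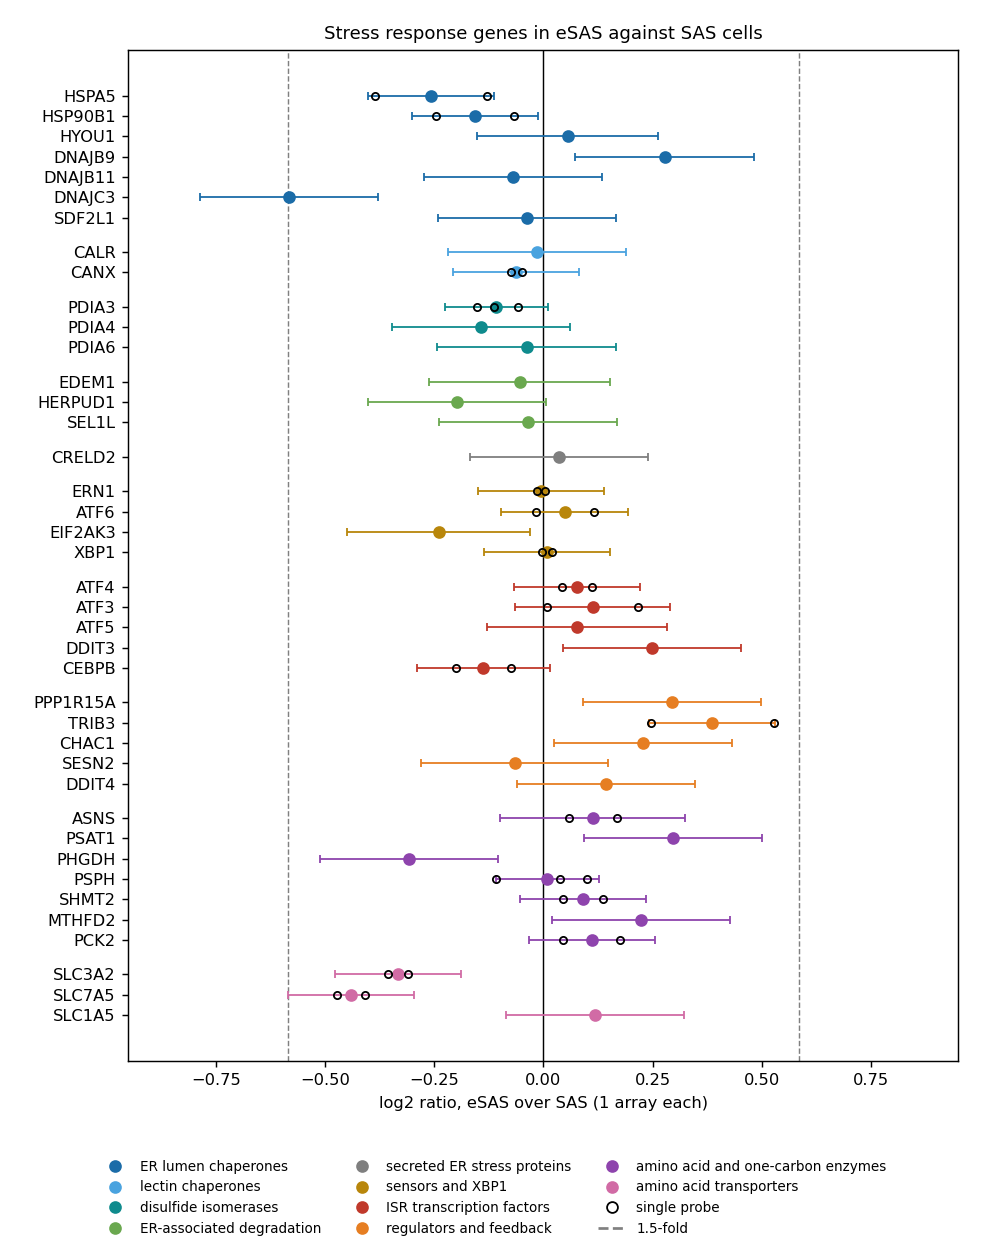
Log2 ratio of eSAS over SAS for each of the 40 measured genes, coloured by role, from 1 array of each population. Filled points are genes, open circles are single probes where a gene has several, bars are 1 software error of the ratio, and dashed lines mark 1.5-fold. All 40 genes lie inside the dashed lines, with DNAJC3 at -0.58 nearest to them and TRIB3 highest at 0.39.

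**Figure D2:**
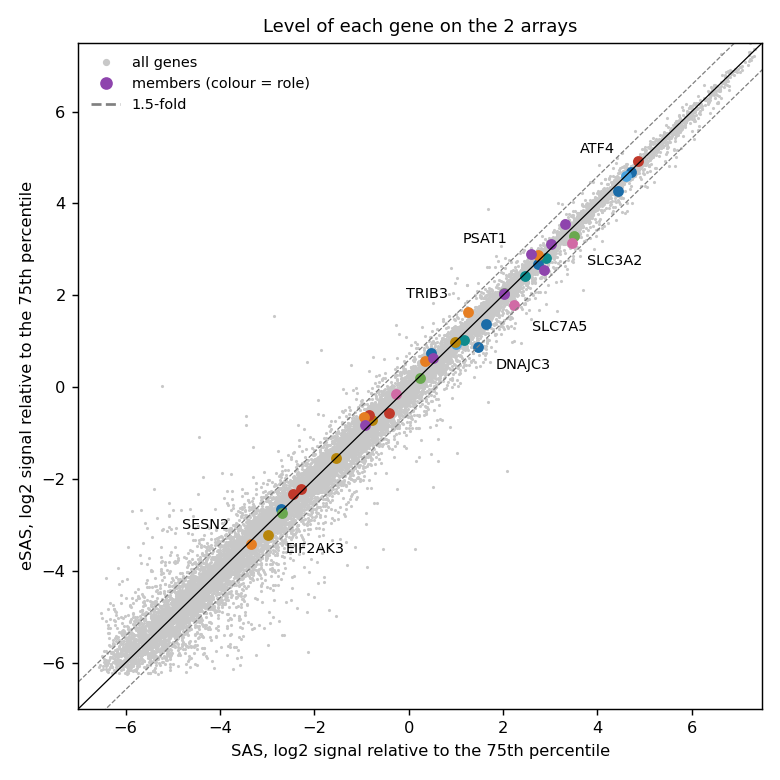
Level of every gene on both arrays, as log2 of the processed signal relative to the array's 75th percentile, with the 40 stress response genes in the colours of their roles and all 19467 genes in grey. The dashed lines mark 1.5-fold. The coloured points follow the diagonal of equal level, whereas the grey points widen towards low signals.

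Chaperones of the ER lumen had a median log2 ratio of -0.07, with 5 of 7 below 0, where 49.8% of all genes were above it. Their range was the widest among the roles, from DNAJC3 at -0.58 to DNAJB9 at 0.28. HSPA5 encodes BiP, the main Hsp70 of the ER and the usual marker of the unfolded protein response. Its first probe gave 4932 in SAS and 4343 in eSAS cells, and its second probe 3018 and 2226. Both probes were lower in eSAS cells, and the gene's log2 ratio was -0.26. HSP90B1, the ER Hsp90 known as GRP94, gave 65802 and 60525 with 1 probe and 10927 and 8873 with the other, a log2 ratio of -0.16. HYOU1, a large Hsp70-related chaperone, gave 189 on both arrays (0.06). DNAJB11, a co-chaperone that feeds unfolded clients to BiP, gave 8365 and 7679 (-0.07). SDF2L1, a partner of DNAJB11, gave 32703 and 30681 (-0.04). These 3 genes differed by less than the spread between probes of a gene.

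DNAJC3 and DNAJB9 stood furthest apart among the co-chaperones of BiP, and in opposite directions. DNAJC3, also called P58IPK, is a lumenal J-domain protein that was first described as an inhibitor of eIF2 kinases. Its probe at chr13:95214001-95214144 of hg18 gave 3418 in SAS and 2199 in eSAS cells. The log2 ratio of -0.58 was the lowest of the list and stopped just short of the 1.5-fold limit at 1.497-fold. Of all genes, 8.28% were at least as far from 0. Without scaling or after quantile normalization it passed the limit. DNAJB9, or ERdj4, a J-domain protein of the ER that is induced through XBP1, gave 1728 and 2016, a log2 ratio of 0.28 and 1.21-fold higher. Each rests on a single spot per array.

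The other ER folding and quality control genes differed little. The lectin chaperone CALR, which binds glycoproteins in the lumen, gave 30204 and 28777 (-0.02), and its membrane-bound relative CANX gave 8644 and 7904 with 1 probe and 719 and 669 with the other (-0.06). PDIA3 is the disulfide isomerase that works with both of them. Its 3 probes gave 13777 and 11942, 10414 and 9267, and 5709 and 5280, all lower in eSAS cells, for a log2 ratio of -0.11. PDIA4 gave 2815 and 2456 (-0.14) and PDIA6 gave 6830 and 6403 (-0.04). All 5 of these genes were below 0, and each by less than the software's error of a single probe.

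Degradation of misfolded ER proteins was represented by HERPUD1, SEL1L and EDEM1. HERPUD1, a membrane protein of the retrotranslocation complex and a sensitive target of ER stress, gave 14007 in SAS and 11768 in eSAS cells, a log2 ratio of -0.20. SEL1L, the adaptor of the ubiquitin ligase HRD1, gave 1464 and 1376 (-0.04). A second SEL1L probe gave 20.8 in SAS cells and 15.2 in eSAS cells, where it was not well above background, and was not used. EDEM1 takes glycoproteins out of the folding cycle. Its probe gave 194 and 180 (-0.05), and a second probe gave 416 and 619 but its spot on the SAS array was marked as non-uniform by the software. With marked spots kept, the EDEM1 log2 ratio was 0.29. Of the secreted proteins that ER stress induces, CRELD2 gave 5047 and 4980 (0.04). The array lists an ARMET probe, the older symbol of MANF, at chr3:51401727-51401786 of hg18, which gave 36751 and 32333 (-0.13) and was not counted in the list.

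Among the sensors and XBP1, ATF6 and XBP1 lay near 0, EIF2AK3 lay lower, and ERN1 was measured by uncertain probes. ERN1 gave 698 and 665 with 1 probe and 265 and 256 with another (-0.01). Those 2 probes lie between 59560092 and 59561582 on chromosome 17 of hg18, and the probe at chr17:59474819-59474878, which the array assigns to the reference transcript, was not well above background with 7.71 and 8.02. The level of ERN1 mRNA itself is therefore not settled by this array. ATF6 gave 3135 and 3272 with 1 probe and 169 and 161 with the other (0.05). EIF2AK3 gave 157 and 128, a log2 ratio of -0.24 against a software error of 0.21, and 30.3% of all genes were at least as far from 0. XBP1 gave 12082 and 11618, and 500 and 488, with log2 ratios of 0.00 and 0.02. The spliced and unspliced forms of XBP1 mRNA are not told apart by these probes.

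Transcription factors of the integrated stress response lay near 0 with 4 of 5 above it and a median of 0.08, where 49.8% of all genes were above 0. ATF4, its central factor, gave 95542 and 94772 with the brighter probe and 13559 and 14097 with the other (0.08). ATF3, a stress-induced repressor and target of ATF4, gave 1754 and 1962 with 1 probe and 29.6 and 28.7 with the other (0.11). The brighter ATF3 spot lies in the rows of the array where the software marked most uneven spots, and without those rows the ATF3 log2 ratio was 0.01. ATF5, a relative of ATF4, gave 255 and 259 (0.08). DDIT3 encodes CHOP, the factor that links lasting ER stress to cell death, and gave 692 and 792 (0.25). CEBPB, a dimer partner of ATF4, was the exception. A probe spotted 10 times gave log2 ratios of -0.09 to -0.05 at all 10 spots, and the dimmer probe gave 74.0 and 62.1, for a gene value of -0.14.

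Feedback and effector genes downstream of ATF4 and CHOP had log2 ratios above 0 for 4 of 5, with a median of 0.23, where 49.8% of all genes were above 0. Past 1.2-fold were 2 of the 5, TRIB3 and PPP1R15A, where 12.4% of all genes were that much higher. TRIB3, a pseudokinase that restrains ATF4 and CHOP, had the highest log2 ratio of the list at 0.39, or 1.31-fold. Its probes gave 21145 in SAS and 24160 in eSAS cells, and 413 and 572. PPP1R15A encodes GADD34, which brings a phosphatase to eIF2 and ends the response. It gave 645 and 761 with a single probe, a log2 ratio of 0.29 and 1.23-fold higher. CHAC1, an enzyme that breaks down glutathione, gave 1581 and 1783 (0.23), and DDIT4, an inhibitor of mTORC1 signalling, gave 8324 and 8856 (0.14), within the software's error of 0.20. SESN2, a leucine-binding inhibitor of mTORC1, gave 122 and 113 (-0.07). Apart from TRIB3, whose probes had log2 ratios of 0.25 and 0.53, each of these values comes from a single spot per array.

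Enzymes of amino acid, serine and one-carbon metabolism were above 0 for 6 of 7, with a median of 0.11, where 49.8% of all genes were above 0. ASNS, which makes asparagine and is a classic target of ATF4, gave 20098 and 21735 with 1 probe and 21.3 and 21.4 with the other (0.11). The dimmer probe, at chr7:97376072-97376131 of hg18, is not assigned to the reference transcript by the array. The brighter one, at chr7:97319397-97319456, is assigned to it and alone gave 0.17. Along the serine pathway, the first enzyme PHGDH and the second enzyme PSAT1 stood on opposite sides. PHGDH gave 9062 in SAS and 7048 in eSAS cells, a log2 ratio of -0.31 and 1.24-fold lower. PSAT1 gave 7517 and 8892, a log2 ratio of 0.30 and 1.23-fold higher. The last enzyme, PSPH, has near-identical copies in the genome that could share signal, and its 3 probes gave log2 ratios of -0.11, 0.04 and 0.10. The only PSAT1 spot lies in the rows with many uneven spots but was not itself marked, and under normexp on mean pixels its log2 ratio was -0.18. In mitochondria, SHMT2 takes a carbon unit from serine and gave 4382 and 4355, and 23144 and 24489 (0.09). MTHFD2, the next enzyme of that pathway, gave 12414 and 13956 (0.22). PCK2, the mitochondrial form of PEP carboxykinase, gave 411 and 447 with 1 probe and 7744 and 7692 with the other (0.11).

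Both chains of the large neutral amino acid transporter LAT1 were lower in eSAS cells. SLC7A5 is the light chain, which carries leucine and other large amino acids, and SLC3A2 (CD98) is the heavy chain that takes it to the cell surface. SLC7A5 gave 27484 in SAS and 19081 in eSAS cells with 1 probe and 1225 and 889 with the other. SLC3A2 gave 31888 and 24781, and 5900 and 4438. All 4 probes, which lie in different rows of the array, were lower in eSAS cells, with log2 ratios from -0.47 to -0.31. The gene values were -0.44 for SLC7A5 and -0.33 for SLC3A2, or 1.36-fold and 1.26-fold lower. SLC1A5, the glutamine transporter also called ASCT2, gave 1030 and 1076 (0.12). Both LAT1 chains are also induced by ATF4. Within the list both lay below the enzymes and regulators named above, which were mostly above 0, though PHGDH (-0.31) came near SLC3A2. That comparison of groups was not tested.

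Grouped by branch, a grouping chosen after the values were seen, the larger groups of the list lay mostly on opposite sides of 0, by small amounts. Of 16 measured chaperones, oxidoreductases, degradation factors and secreted proteins of the ER, 13 were below 0, with a median of -0.06 and a range of -0.58 to 0.28. Of 17 factors, regulators and enzymes of the integrated stress response, 14 were above 0 (82.4%), with a median of 0.11 and a range of -0.31 to 0.39. That group leaves out the 3 amino acid transporters, whose median was -0.33, and with them 15 of 20 were above 0 (75%). The 4 sensors and XBP1, in neither group, had 2 above 0. Over all genes 49.8% were above 0. Those medians are of the order of the SD between spots of a probe. Among the list's promoters searched above, shown or only named, the 7 genes with an ERSE had a median of -0.04 (-0.26 to 0.04). The 3 with an ERSE-II had a median of -0.04 (-0.20 to 0.06), against 0.11 (-0.20 to 0.23) for the 5 with a CARE. HERPUD1, with both kinds of element, was the lowest of its ERSE-II group and of the CARE group at -0.20. These medians were small and shared genes with the branches, so they add no separate measurement.

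**Figure D3:**
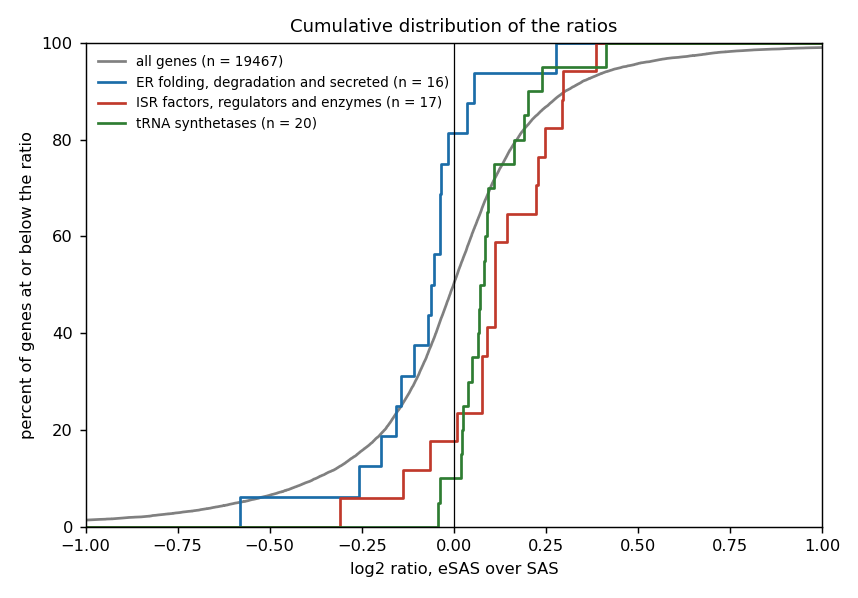
Percent of genes at or below each log2 ratio of eSAS over SAS, for all 19467 genes, the 16 ER genes, the 17 integrated stress response genes and the 20 cytosolic tRNA synthetases. The axis ends at -1 and 1, beyond which lie further genes of the grey curve only. The ER curve stands to the left of 0 for 13 genes, and the other coloured curves stand to the right of it for 14 and 18 genes.

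Further genes of the same pathways, outside the list of 42, did not divide by branch in the same way. Of 37 other genes of the unfolded protein response, 36 were measured, with a median of 0.03 and 20 above 0 (55.6%, against 49.8% of all genes). At 1.5-fold none was higher, where 3.19% of all genes were, and 1 was lower, where 4.99% were. The lower one was ERO1B, an oxidase that recharges disulfide isomerases, at -0.60. Its probes disagreed, with -0.17, -0.21 and -1.42, so that 1 of 3 probes carried the value past the limit, and it was -0.21 by the median over probes and 2.17 under normexp on mean pixels. Of 23 other targets and kinases of the integrated stress response, 19 were measured, with a median of 0.04 and 12 above 0 (63.2%). At 1.5-fold none was higher and 1 was lower, against the same 3.19% and 4.99% of all genes. JDP2, a repressor of the AP-1 family, gave 1165 in SAS and 609 in eSAS cells, a log2 ratio of -0.88, which was -0.28 under normexp on mean pixels. At 1.2-fold 5 of the 19 were higher (26.3%, against 12.4% of all genes) and 4 lower (21.1%, against 14.9%), larger shares than in the list of 42. Of the other unfolded protein response genes, none was 1.2-fold higher and 5.56% were lower. Whether these shares differ was not tested. The higher ones, named here after their values were seen, were CTH (0.33) and PYCR1 (0.32), enzymes of cysteine and proline synthesis, ALDH1L2 (0.33) of mitochondrial folate metabolism, the neutral amino acid transporter SLC38A2 (0.32) and the secreted stress factor GDF15 (0.30). The lower ones beside JDP2 were CBS (-0.45), whose probes gave 0.09 and -0.99, the arginine transporter SLC7A1 (-0.29) and ALDH18A1 (-0.29), an enzyme of proline synthesis. For PYCR1, ALDH1L2 and SLC7A1 the brighter probe lay within 1.2-fold, at 0.18, 0.23 and -0.20. Their dimmer probes, at 0.45, 0.43 and -0.39, carried the gene values past it. Both SLC38A2 probes were past 1.2-fold, at 0.33 and 0.31.

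Cytosolic aminoacyl-tRNA synthetases, which charge tRNA with amino acids and are also targets of ATF4, lay narrowly above 0. All 20 were measured, 18 were above 0 (90%, against 49.8% of all genes), and the median was 0.08 with a range of -0.04 to 0.41. CARS1, the cysteine enzyme, was the highest with 297 in SAS and 381 in eSAS cells. It was the only one past 1.2-fold (5%, against 12.4% of all genes). GARS1 followed with 1846 and 2099 (0.24). NARS1 (-0.04) and QARS1 (-0.04) were the 2 below 0. Without scaling between the arrays 13 of the 20 lay above 0 (65%, against 38.5% of all genes), and relative to the median of all genes 18 did.

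**Figure D4:**
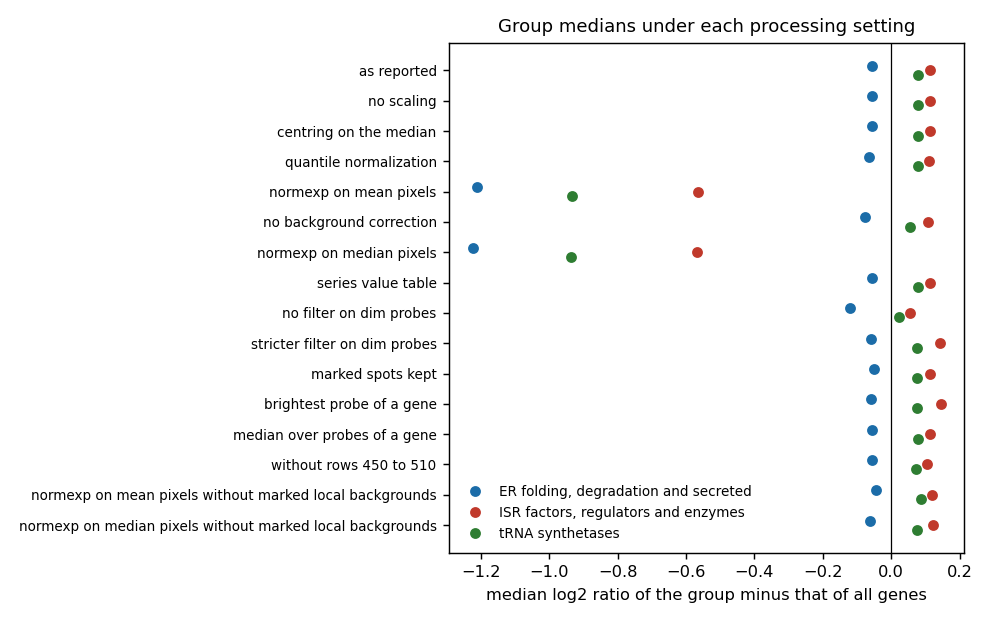
Median log2 ratio of the ER genes, the integrated stress response genes and the tRNA synthetases, minus the median of all genes, under the reported processing and 15 alternatives. In all but 2 settings the ER genes lie between -0.12 and -0.04 and the other groups between 0.02 and 0.15. Under normexp background correction on mean or median pixels all 3 groups lie below all genes, at -0.56 or lower.

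The sign of the integrated stress response genes and of the tRNA synthetases relative to all genes thus depended on 1 processing choice. Normexp is a background correction that subtracts each spot's local background and then fits a model of the remaining background over the spots of an array. Applied to all spots it moved the median of all genes to 0.68, and relative to that median the integrated stress response genes stood at -0.56, the synthetases at -0.93 and the ER genes at -1.21. When the 26 spots whose local background the software had marked as non-uniform were left out of that correction, the values returned to 0.12, 0.09 and -0.04.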

How the data were processed

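Agilent 1-colour arrays measured total RNA, 1 array for SAS and 1 for eSAS cells. The authors deposited the output of Agilent Feature Extraction 10.7.3.1, named in the submitters' processing notes, in which the processed signal intensity was corrected for background and spatial trends within an array and was not scaled between arrays. Their series table held the same value for 43376 of 43376 non-control spots.

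From there, control spots and 330 marked spots (non-uniform or population outlier) were left out, spots of a probe were averaged, and log2 signals were set relative to each array's 75th percentile. A probe was well above background where over 50% of its spots were. Lowest such signals were 12.8 and 15.2, and 0 spots were saturated. Of 40814 probes, 23815 were named by accession in the RefSeq table of GRCh38.p14, 2742 by a current and 1030 by an older symbol, and 13227 kept the array's name. Listed genes were taken by the array's own name. Probe positions are of hg18.

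The members, gene lists and counts were chosen with earlier results of these data known. Values are given for every listed gene measured on either array and for genes of the further lists at least 1.5-fold apart; other names were chosen after their values were seen. Counts at 1.2-fold, the ARMET probe and normexp without marked backgrounds were added later. Alternatives covered scaling, background correction, pixel summary, filters, marked spots, probes of a gene and array rows. On simulated data, 200 of 200 genes made 2-fold different among 20547 were recovered, with 0 false calls. The simulation copied the SAS array and added only noise about as large as the SD between spots of a probe. It therefore checked the calculation and not how reliable a 1.5-fold call is between these 2 arrays. Python 3.11.15 ran the calculations and limma 3.58.1 in R 4.3.3 the normexp correction.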

Additional observations from a re-analysis of the deposited data

How the results depend on the processing

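With 1 array of each population no setting gives a test. No paired analysis was possible because each group holds 1 sample, and with both arrays on 1 slide no block could be fitted. Of 15 alternatives, normexp with an offset of 50 moved most values, by 0.68 for the median of all genes. On mean pixels it put 11 genes of the list at least 1.5-fold higher, where 52.4% of all genes were, and 8 lower, where 6.92% were. At 1.2-fold the counts were 12 and 18, and the list median was -0.18. On median pixels the values were 11, 9, 12, 17 and -0.19, where 52.4% of all genes were 1.5-fold higher and 6.84% lower. The same shares of all genes apply to the pathway counts that follow. For mean and median pixels, the median of other unfolded protein response genes was 0.153 and 0.159, the median of other integrated stress response targets and kinases -0.0336 and -0.0308, the median of cytosolic aminoacyl-tRNA synthetases -0.256 and -0.258, and the median of cytosolic and mitochondrial heat shock genes -0.495 and -0.491, and the pathway lists then held 16 and 17 genes 1.5-fold higher and 8 and 9 lower. In these 2 settings 12 genes of the list took the other sign. Of the genes named here, within the list or outside it, that had been at least 1.2-fold apart, those that did so were PSAT1 (-0.18 and -0.18), SLC38A2 (-0.235 and -0.235), GDF15 (-0.272 and -0.293), CBS (0.756 and 0.758), SLC7A1 (0.625 and 0.625) and ERO1B (2.17 and 2.18). The log2 ratio relative to all genes turned to -0.665 and -0.657 for DNAJB9, -0.0163 and -0.0322 for PPP1R15A, -0.429 and -0.431 for TRIB3, and -0.859 and -0.865 for PSAT1. Leaving out 26 spots with marked local background undid this shift. Without scaling, 1 gene of the list, DNAJC3, was 1.5-fold lower, where 5.88% of all genes were, and 1 was 1.2-fold higher. With quantile normalization DNAJC3 was the 1 gene 1.5-fold lower, where 4.67% of all genes were. Of the pathway genes, ERO1B and JDP2 were the 2 that were 1.5-fold lower as reported, and ERO1B dropped out, leaving 1, with centring on the median, quantile normalization, no background correction, the stricter filter, the brightest probe, the median over probes, and both forms of normexp without marked backgrounds; with marked spots kept, 1 was 1.5-fold higher. CBS was 0.0932 with the stricter filter and with the brightest probe. In the settings other than normexp on all spots, 0 to 4 genes of the list took the other sign, among them EDEM1 at 0.29 with marked spots kept. The brightest probe alone gave -0.13 for HSPA5, -0.07 for HSP90B1, 0.25 for TRIB3 and 0.22 for ATF3, and without rows 450 to 510 PSAT1 had no value. Signals near the lowest ones well above background, as for the dim probes of ASNS and ATF3, carry the largest software error, up to 0.37.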

Other observations

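Cytosolic and mitochondrial heat shock genes, which the unfolded protein response of the ER does not chiefly control, were level as well. Of 13 genes listed, 11 were on the array under these names and measured, with a median log2 ratio of -0.01. None was 1.5-fold apart, where 3.19% of all genes were higher and 4.99% lower. HSPH1, an Hsp110 that exchanges nucleotide on Hsp70, was the only one past 1.2-fold, with 27249 in SAS and 19530 in eSAS cells (-0.43) from a single probe. HSPB1, the small heat shock protein Hsp27, was the highest at 0.14 over 3 probes.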
